A study of Mus musculus with 10 samples.

Results

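The 7 genes described here encode peptidases known to cleave amyloid beta (Aβ), and their transcripts were measured in the cortex of the 5XFAD mouse: Mme, Ide, Ece1, Ece2, Ace, Thop1 and Pitrm1. They were chosen by symbol, as the rows of the deposited tables whose Ensembl identifier carries one of these names in the GENCODE annotation, and all 7 were found among 53700 gene identifiers. Each of the 7 had more than 10 counts in total and was tested. The series holds 10 libraries of cerebral cortex from female mice aged 4 months. Of these, 5 are from 5XFAD mice with neuronal deletion of Idol (5XFAD;Neu cKO) and 5 from 5XFAD littermate controls. The labels name Idol and Camk2a-cre, followed by WT for the controls and by cKO for the others. All 10 carry the 5XFAD transgenes, which include human APP with mutations of familial Alzheimer's disease under the neuronal Thy1 promoter, so no library shows these genes without amyloid. In 5XFAD;Neu cKO mice a Cre under the Camk2a promoter, which is active mainly in excitatory forebrain neurons, acts on floxed Idol; the sources used here do not say which of these alleles the controls carry.

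Steady-state Aβ in brain depends on its production from APP and on its removal by cellular uptake, by drainage and by proteolysis. Much of the proteolysis is carried out by zinc metallopeptidases that were first known for cutting short signalling peptides. Neprilysin (Mme) works at the cell surface on enkephalins and tachykinins, insulin-degrading enzyme (Ide) mainly in the cytosol on insulin, the endothelin-converting enzymes (Ece1 and Ece2) at the cell surface and in acidic vesicles, angiotensin-converting enzyme (Ace) at the cell surface, thimet oligopeptidase (Thop1) mainly in the cytosol, and the presequence protease (Pitrm1) in the mitochondrial matrix.

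What the 7 proteins share is a short zinc-binding motif, which is shown here because its 2 arrangements divide the genes. In 5 of them the motif is His-Glu-any-any-His, and in Ide and Pitrm1 the order is inverted, His-any-any-Glu-His. The codons were read from GRCm39 along the coding exons of the canonical transcripts and are printed 5′ to 3′ on the coding strand, with the codons of the 2 histidines and the glutamate in capitals and 6 bases on either side.
Mme, chr3:63269436-63269462, plus strand: attggaCATGAAatcacaCATggattt
Ece1, chr4:137684477-137684503, plus strand: gtgggcCACGAGctgactCACgctttc
Ece2, chr16:20462634-20462660, plus strand: atgggcCATGAGttgacaCATgccttt
Ace, first match, chr11:105863730-105863756, plus strand: gtacacCACGAGatgggcCACgtgcag
Ace, second match, chr11:105875914-105875940, plus strand: gcgcacCACGAAatgggcCACatccag
Thop1, chr10:80916404-80916430, plus strand: tacttcCACGAGttcgggCACgtcatg
Ide, chr19:37306529-37306555, minus strand: ttaagtCATttttgtGAACATatgctg
Pitrm1, chr13:6603255-6603281, plus strand: gtcccaCATgttctcGAGCATacggtc
Ace holds the motif 2 times, at codons 395 and 993, one in each of its catalytic domains, and each other gene holds it 1 time. The inverted motif lies near the start of the coding sequence, at codon 108 of 1019 in Ide and codon 104 of 1036 in Pitrm1, while the direct motif of Mme, Ece1 and Ece2 lies towards its end, at codon 584 of 750, 590 of 753 and 600 of 763. Of 21593 canonical coding sequences of the annotation, 3.32% hold the direct motif and 2.32% the inverted one, so a match alone does not mark a peptidase. None of these coding sites is what the libraries read, since reads lie close to the poly(A) tail.

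The libraries held 4320504 to 7466192 reads on genes in the 5XFAD group and 5148499 to 7246659 in the 5XFAD;Neu cKO group. Mylip, the gene of IDOL, had 45 to 108 counts in the libraries labelled 5XFAD and 50 to 148 in those labelled 5XFAD;Neu cKO (log2 fold change 0.39, edgeR adjusted p = 0.777). By qPCR, the study reports lower Idol mRNA in the cortex of mice with the neuronal deletion than in controls, which is the opposite direction. The Mylip counts did not show this fall, and their difference did not pass the test. Counts summed over a gene cannot tell a deleted exon from the rest of the transcript. The qPCR measurements were not analysed here, and why the directions differ was not tested. The groups are called by their labels, as controls (labelled 5XFAD) and cKO-labelled libraries (labelled 5XFAD;Neu cKO). The cortex was checked with 8 markers of cortical excitatory neurons, all of which were detected and whose summed level was 514 to 630 CPM (counts scaled to library size after TMM normalization) in libraries labelled 5XFAD and 536 to 585 CPM in those labelled 5XFAD;Neu cKO. Markers of striatal neurons were also present, 8 of 8, at a summed 608 to 832 CPM and 579 to 921 CPM. The mean of that sum was 707 CPM in libraries labelled 5XFAD and 715 CPM in the others. For the cortical excitatory markers it was lower, at 566 and 565 CPM. Sums over different genes do not measure the share of a tissue. The part of striatal tissue in the levels below was not tested. Over all genes, 42 of 19268 differed between the groups at an adjusted p under 0.05, which is 0.218%.

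None of the 7 peptidase genes passed the test between cKO-labelled libraries and controls. At an adjusted p under 0.05, 0 of 7 passed with edgeR, against 0.218% of all genes. DESeq2 gave an adjusted p for Ide and Ece1 only, and 0 of these 2 passed. The share over all 19268 genes was 0.379%, which also counts the genes that DESeq2 gave no adjusted p. At an unadjusted p under 0.05 in edgeR 0 of 7 passed, against 7.95% of all genes. In 0 of 7 did the groups fail to overlap, against 1.3% of all genes. Against shares this small in the background, 0 of 7 is not a result about these peptidases. The log2 fold change was above 0 for Mme, Ece1 and Ece2 and below 0 for Ide, Ace, Thop1 and Pitrm1, with a median of -0.079, where the median over all genes was -0.00056. The adjusted p ran from 0.734 for Ece1 to 0.974 for Ide. What the libraries do give is each gene's level, its spread, and the interval within which a difference could lie.

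**Figure D1:**
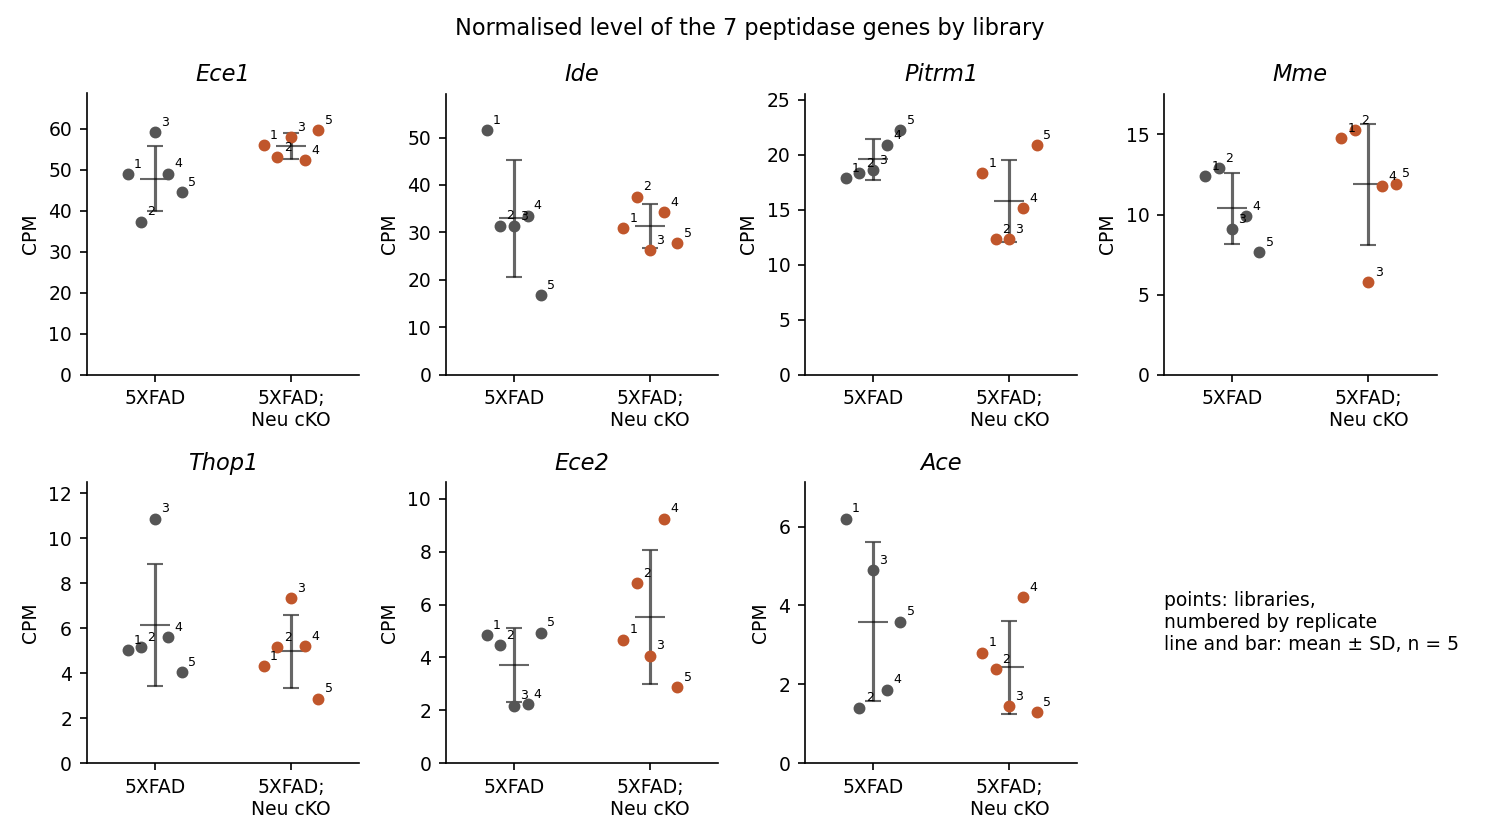
CPM of each peptidase gene (y axis, from 0) in the 5 libraries labelled 5XFAD and the 5 labelled 5XFAD;Neu cKO, with points numbered by replicate and the mean ± SD beside them; panels are ordered by mean level. The groups overlap in every panel; for Ece1 only control 3, at 59.1 CPM, lies within the 5XFAD;Neu cKO range of 52.3 to 59.6 CPM.

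A QuantSeq read is designed to mark the 3′ end of one transcript, so a CPM needs no division by transcript length. Levels of different genes can then be set side by side, as far as the reads of each gene were counted in full. For Ece2 and Pitrm1, whose 3′ exons overlap another gene, that is uncertain, as described below, and so is their place in the order. In mean level over the 10 libraries the order was Ece1 (51.7 CPM), Ide (32.1), Pitrm1 (17.7), Mme (11.1), Thop1 (5.56), Ece2 (4.63) and Ace (3.01). Ece1 was above 84.3% of the genes tested and Ace above 35.4%. Ece1 exceeded Ide in 9 of 10 libraries, Ide exceeded Pitrm1 in 9 and Pitrm1 exceeded Mme in 9. Mme was above Thop1 in 8, and Ece2 above Ace in 8. Thop1 and Ece2 changed places from library to library, Thop1 being the higher in 5 of 10, and their order is not resolved. Summed over the 7 genes, the level was 104 to 147 CPM in libraries labelled 5XFAD and 115 to 132 CPM in those labelled 5XFAD;Neu cKO.

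Mme (ENSMUSG00000027820, chromosome 3 of GRCm39, 63148889 to 63293451), which encodes neprilysin, gave 64, 55, 67, 53 and 34 counts in controls 1 to 5 and 79, 83, 44, 70 and 83 in cKO-labelled libraries 1 to 5. Normalised, the latter were at 14.8, 15.3, 5.78, 11.8 and 11.9 CPM, and the former at 12.4, 12.9, 9.10, 9.88 and 7.63 CPM. The lowest of all 10 libraries was cKO-labelled library 3, and the next lowest was control 5. Means were 11.9 ± 3.78 CPM and 10.4 ± 2.23 CPM (SD, n = 5), a log2 fold change of 0.19 ± 0.27 (SE; edgeR adjusted p = 0.950; two-sided exact permutation of mean log2 CPM, p = 0.643). The 95% interval of the difference reached from -0.34 to 0.72, that is from 0.790 to 1.65 times the control level, so neither a moderate rise nor a small fall of Mme could be told from no difference at this depth.

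Ide (ENSMUSG00000056999, chromosome 19, 37245688 to 37340729) gave 266, 134, 231, 180 and 75 counts in controls 1 to 5 and 165, 204, 200, 204 and 193 in cKO-labelled libraries 1 to 5. On the CPM scale the controls spanned 16.8 (replicate 5) to 51.5 (replicate 1), with 31.4, 31.4 and 33.6 between, while the libraries labelled 5XFAD;Neu cKO stayed within 26.3 to 37.5. The whole range of the latter lay inside that of the former. The coefficient of variation was 37.5% in the 5XFAD group and 14.8% in the 5XFAD;Neu cKO group, a difference in spread that was not tested. Means were 31.3 ± 4.64 CPM against 33.0 ± 12.4 CPM (SD, n = 5), with a log2 fold change of -0.08 ± 0.18 (SE) and a 95% interval from -0.43 to 0.28 (edgeR adjusted p = 0.974; two-sided exact permutation p = 1). Its sign rested on 1 library: without control 1 the log2 fold change was 0.14.

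Ece1 (ENSMUSG00000057530, chromosome 4, 137589530 to 137692542), which processes big endothelin to the vasoconstrictor endothelin, was the most abundant of the 7. Controls 1 to 5 had 252, 159, 435, 263 and 198 counts, or 48.8, 37.3, 59.1, 49.0 and 44.4 CPM. The cKO-labelled libraries 1 to 5 had 299, 288, 441, 311 and 415 counts, or 55.9, 53.0, 57.9, 52.3 and 59.6 CPM. Every cKO-labelled library exceeded 4 of the 5 controls, and control 3 alone closed the gap. Ece1 had the narrowest interval, with a log2 fold change of 0.22 ± 0.13 (SE) and a 95% interval from -0.04 to 0.47 on 55.7 ± 3.12 CPM against 47.7 ± 7.93 CPM (SD, n = 5; edgeR adjusted p = 0.734; two-sided exact permutation p = 0.0556). It did not pass, and its upper limit corresponds to 1.39 times the control level. Of 9 endothelial markers, a cell type in which ECE1 is prominent, 0 passed, with summed levels of 275 to 304 CPM in cKO-labelled libraries and 237 to 328 CPM in those labelled 5XFAD. In bulk tissue, fewer cells of a type and less RNA per cell cannot be told apart.

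Ece2 (ENSMUSG00000022842, chromosome 16, 20448332 to 20465273), the relative of Ece1 that works in acidic vesicles and is enriched in neural tissue, gave 25, 19, 16, 12 and 22 counts in controls 1 to 5 and 25, 37, 31, 55 and 20 in cKO-labelled libraries 1 to 5. Replicate 4 of the latter, at 9.25 CPM, was the highest of all libraries, and the lowest 2 were controls 3 and 4, at 2.17 and 2.24 CPM. Means were 5.54 ± 2.52 CPM against 3.73 ± 1.40 CPM (SD, n = 5). The log2 fold change was 0.58 ± 0.42 (SE), with a 95% interval from -0.26 to 1.41 (edgeR adjusted p = 0.833; two-sided exact permutation p = 0.190). Without cKO-labelled library 4 it was 0.31.

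The counts of Ece2 may stand for only part of its transcripts. In the annotation used here, GENCODE M39, the gene Eef1ece2 runs through Ece2 on the same strand and shares 2937 of its exon bases. These include 86.3% of the canonical Ece2 transcript and all 856 bases of its last exon. The authors counted with an earlier release, in which the overlap was not checked. Reads on bases of 2 genes are set aside as ambiguous by the default counting mode of htseq-count. The mode used is not given in the sources used here, and Eef1ece2 itself was counted 0 times over the 10 libraries. Ece2 has 3693 exon bases that Eef1ece2 does not share, of which 466 belong to the canonical transcript and 603 lie past the last base of Eef1ece2. The level of Ece2 is uncertain to that extent.

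**Figure D2:**
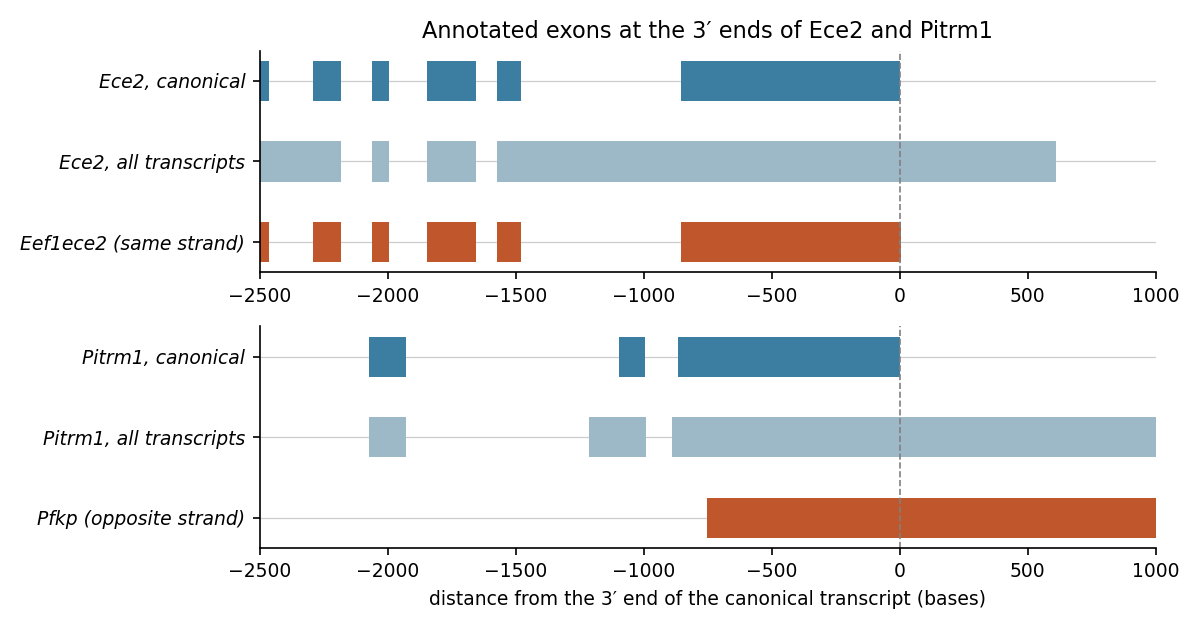
Exons annotated in GENCODE M39 (bars) around the 3′ ends of Ece2, above, and Pitrm1, below, with the gene that shares those bases in orange. The x axis is the distance in bases from the end of the canonical transcript. All 856 bases of the last canonical exon of Ece2 are also exon of Eef1ece2 on the same strand, and 754 of the 866 bases of that of Pitrm1 are exon of Pfkp on the opposite strand.

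Ace (ENSMUSG00000020681, chromosome 11, 105858469 to 105880790), which converts angiotensin I to angiotensin II, was the lowest of the 7, with 32, 6, 36, 10 and 16 counts in controls 1 to 5 and 15, 13, 11, 25 and 9 in cKO-labelled libraries 1 to 5. In CPM controls 1 and 3 were highest, at 6.20 and 4.89, controls 2 and 4 lowest, at 1.41 and 1.86, and control 5 lay between, at 3.59. The other group spanned 1.29 to 4.21 CPM, inside nearly the same range. Its log2 fold change of -0.58 had the widest interval of the 7 genes, from -1.63 to 0.47 (SE 0.52; mean levels 2.43 ± 1.18 CPM against 3.59 ± 2.02 CPM, SD, n = 5; edgeR adjusted p = 0.879; two-sided exact permutation p = 0.357). ACE is also a product of the choroid plexus and of vessels. The 8 choroid plexus markers had summed levels of 34.7 to 84.0 CPM in libraries labelled 5XFAD and 15.0 to 145.9 CPM in those labelled 5XFAD;Neu cKO, and the 9 markers of pericytes and smooth muscle 153 to 195 CPM and 170 to 192 CPM. Of either list 0 genes passed and 0 markers were at 0 counts. The part of these cells, or of the striatal neurons whose markers are given above, in the spread of Ace was not tested.

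Thop1 (ENSMUSG00000004929, chromosome 10, 80905851 to 80919296), which degrades short neuropeptides in the cytosol, gave 26, 22, 80, 30 and 18 counts in controls 1 to 5 and 23, 28, 56, 31 and 20 in cKO-labelled libraries 1 to 5. In CPM control 3, at 10.9, was far above the other 4 controls, which lay between 4.04 and 5.59. The highest library of the other group was also its replicate 3, at 7.35 CPM, and the lowest its replicate 5, at 2.87 CPM. Replicate 3 had the most reads on genes in either group, 7466192 in the control and 7246659 in the cKO-labelled library. Any link to depth was not tested. Means were 4.98 ± 1.63 CPM against 6.14 ± 2.70 CPM (SD, n = 5), with a log2 fold change of -0.32 ± 0.37 (SE) and a 95% interval from -1.06 to 0.43 (edgeR adjusted p = 0.927; two-sided exact permutation p = 0.444). The difference rested on that one control, since without control 3 the log2 fold change was 0.0067.

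Pitrm1 (ENSMUSG00000021193, chromosome 13, 6598069 to 6631774) encodes the mitochondrial protease that clears presequences, and Aβ that reaches the matrix. It gave 92, 78, 137, 112 and 99 counts in controls 1 to 5 and 98, 67, 94, 90 and 145 in cKO-labelled libraries 1 to 5. The controls were the most uniform of any member, 17.8 to 22.2 CPM with a coefficient of variation of 9.66%. In the cKO-labelled group libraries 2, 3 and 4 were below every control, at 12.3, 12.3 and 15.1 CPM, and libraries 1 and 5 were within the control range, at 18.3 and 20.8 CPM. The log2 fold change was -0.31 ± 0.20 (SE), with a 95% interval from -0.71 to 0.10 (15.8 ± 3.75 CPM against 19.6 ± 1.89 CPM, SD, n = 5; edgeR adjusted p = 0.797; two-sided exact permutation p = 0.0794). In GENCODE M39 its last exon runs into that of Pfkp, a phosphofructokinase gene on the opposite strand, with 754 of 866 bases in common. Pfkp averaged 151 ± 16.5 CPM in the cKO-labelled group and 134 ± 6.48 CPM in the control group (SD, n = 5), a log2 fold change of 0.18 (edgeR adjusted p = 0.662). The strand setting of the counting is not given in the sources used here. In GENCODE M39 the 3′ exon of Pfkp lies wholly within exon of Pitrm1, with 1831 bases shared in all. Pfkp was nevertheless counted 548 to 1260 times per library. The overlap in the earlier release used for counting was not checked.

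**Figure D3:**
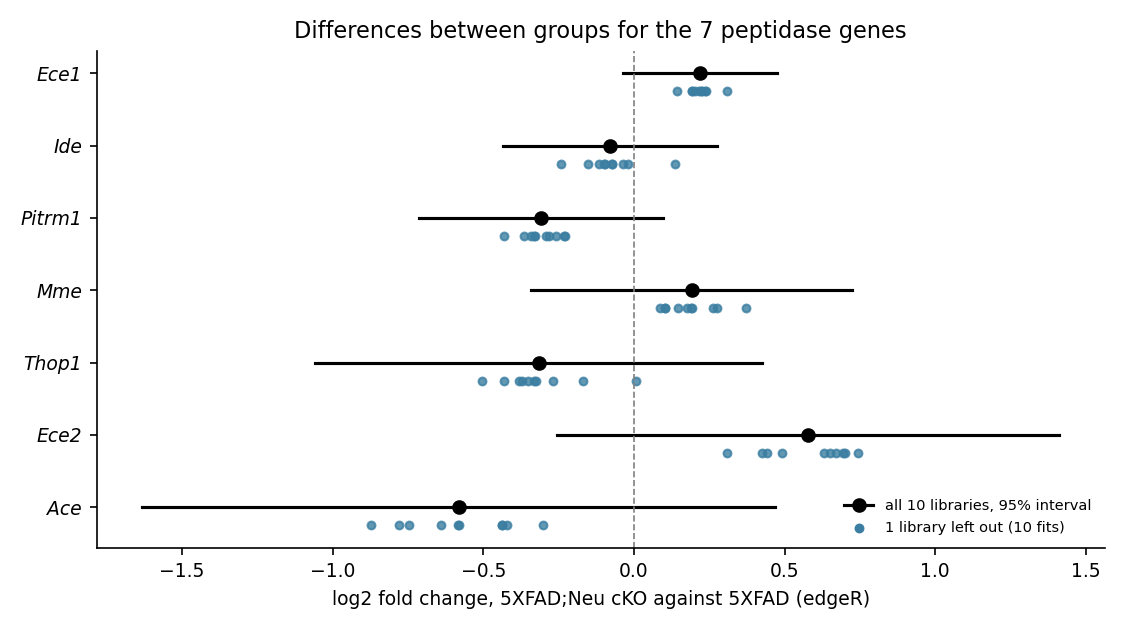
Log2 fold change of the 7 genes (x axis) between cKO-labelled libraries and controls, as the edgeR estimate with its 95% interval (black) and the estimates of the 10 fits that each left out 1 library (blue). All 7 intervals include 0, from the narrowest for Ece1 (-0.04 to 0.47) to the widest for Ace (-1.63 to 0.47), and leaving out 1 library takes Ide and Thop1 across 0.

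The levels of the 7 genes were also compared in pairs across the libraries. Among their 21 pairs, Pearson's r of log2 CPM over the 10 libraries ran from -0.513 (Ece2 and Pitrm1) to 0.568 (Mme and Ide). These values are descriptive, since the libraries also share depth and composition. Counts of Ece2, Ace and Thop1 were low, which weakens r, and whether the genes vary together was not tested. Among 11064 or 11065 genes at a mean of 5 CPM or more, the patterns most like that of Ece1 were those of Ppp1r2 (r = 0.972) and Zfp281 (0.969). For Ide they were Bhlhe41 (r = 0.929) and Cyb561d2 (0.890), for Mme Oscp1 (0.888) and Bop1 (0.882), and for Ece2 Eny2 (0.922) and Stx1a (0.914). Likewise for Ace they were Mgat3 (r = 0.885) and Arid1b (0.883), for Thop1 Arfgef2 (0.902), and for Pitrm1 Pde9a (0.922) and Pwwp3a (0.917). Each is among the closest of many genes over only 10 libraries, and none was tested.

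Relatives of the 7 in the same peptidase families gave a like picture. Of 12 such genes 11 were tested and 0 passed in either direction, with a median log2 fold change of -0.10. The list includes the neprilysin relatives Mmel1, Ecel1 and Phex, the Ide relative nardilysin (Nrdc), the mitochondrial processing peptidase subunits Pmpca and Pmpcb and their respiratory chain relatives Uqcrc1 and Uqcrc2, and the Thop1 relatives Nln and Mipep. Among those at 5 CPM or more, the value furthest above 0 was that of Pmpcb, at 38.9 against 29.9 CPM (log2 fold change 0.36 ± 0.19, SE; edgeR adjusted p = 0.658). The value furthest below 0 was that of Mipep, at 9.63 against 13.5 CPM (log2 fold change -0.48 ± 0.26, SE; edgeR adjusted p = 0.698). Mitochondrial proteases other than Pitrm1 had values above 0 for 9 of 12 genes and a median of 0.094, and 0 passed. Clpx, the unfoldase of the ClpXP protease, was at 16.6 against 11.2 CPM (log2 fold change 0.56, adjusted p = 0.498), and Immp1l, a subunit of the inner membrane peptidase, at 13.7 against 16.7 CPM (-0.29, adjusted p = 0.871).

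Among other proteases that cleave Aβ, a list from matrix metalloproteinases to cathepsins, 1 gene passed. Of 13 listed, 10 were tested, 0 rose and 1 fell, where 0.218% of all genes passed in either direction. This was Ctsd, the lysosomal aspartic protease cathepsin D, which was lower at 217 ± 17.5 CPM against 351 ± 43.1 CPM (SD, n = 5), a log2 fold change of -0.69 ± 0.09 (SE; edgeR adjusted p = 5.24e-07). The 10 had a median of -0.0017, with 5 values on either side of 0. The lysosomal cysteine protease gene Ctsb was at 257 against 299 CPM (log2 fold change -0.21, adjusted p = 0.450), and Plat, the tissue plasminogen activator, at 16.2 against 10.5 CPM (log2 fold change 0.62, adjusted p = 0.462). These 2 were chosen after their values were seen. So was Ctss, the gene of cathepsin S, which the list does not hold and which the study also reports as lower. It was at 81.7 against 154 CPM (log2 fold change -0.91, edgeR adjusted p = 5.24e-07). Cathepsin D is abundant in microglia. Of 9 microglial markers 9 had values below 0, against 50.1% of all genes, and 4 passed, against 0.218% of all genes. Their summed level was 245 to 290 CPM in libraries labelled 5XFAD;Neu cKO and 317 to 469 CPM in those labelled 5XFAD. The part of the microglial markers in the value of Ctsd was not tested. The ranges of the microglial sum did not overlap, but a sum over 9 genes is not a like measure for a single peptidase gene.

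**Figure D4:**
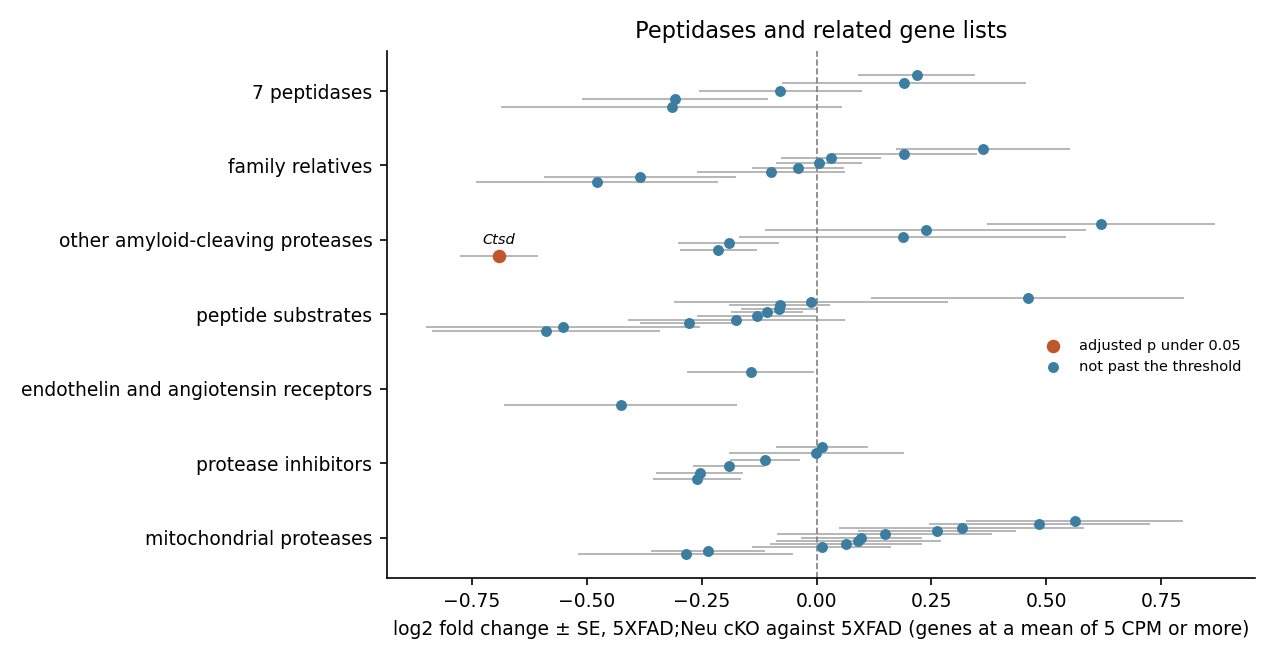
Log2 fold change with its standard error (x axis) of genes at a mean of 5 CPM or more in the peptidase list and 6 related lists (y axis), with genes past an adjusted p of 0.05 in orange; Ece2 and Ace are below 5 CPM and not drawn. Of the genes drawn, Ctsd at -0.69 is the one past the threshold.

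The substrates and partners of these enzymes were measured in the same libraries. Of 13 genes for peptides that the enzymes cut or mature, 11 were tested, 0 passed, and the median was -0.11, with values below 0 for 9. The precursor of endothelin 3, Edn3, was at 7.86 against 5.71 CPM (log2 fold change 0.46, edgeR adjusted p = 0.846). Angiotensinogen (Agt), the astrocytic precursor from which the substrate of ACE is cut, was at 9.74 against 14.8 CPM (log2 fold change -0.59 ± 0.25, SE; edgeR adjusted p = 0.504). Sst, whose product somatostatin is known to raise neprilysin activity, was at 97.3 against 102.9 CPM (log2 fold change -0.08, adjusted p = 0.949), a gene chosen after its values were seen.

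The list of endothelin and angiotensin receptors, which also holds the renin gene Ren1, gave 4 tested genes of 7, all of them receptors, and 0 past the threshold. Ednrb, the endothelin receptor of astrocytes, was at 43.9 against 48.6 CPM (log2 fold change -0.14, adjusted p = 0.897), and Mas1, the receptor of a shorter angiotensin peptide, at 9.91 against 13.4 CPM (log2 fold change -0.43, adjusted p = 0.744). Of 9 protease inhibitor genes 0 passed, with a median of -0.19. Their values ran, among genes at 5 CPM or more, from that of Timp3, which binds to the matrix and inhibits metalloproteinases, at 118 against 142 CPM (log2 fold change -0.26 ± 0.10, SE; edgeR adjusted p = 0.436), to that of the neuronal serpin Serpini1, at 138 against 137 CPM (log2 fold change 0.01, adjusted p = 0.993).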

How the data were processed

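RNA of female mouse cortex was made into 10 QuantSeq 3′ FWD libraries and sequenced as single reads. Read trimming (bbduk), alignment to GRCm39 (STAR) and counting per Ensembl gene (htseq-count) were done by the authors. The labels name STAR 2.7.3a and HTSeq 0.9.1, while the study names a later version of HTSeq. The deposited values are these counts, whole numbers with no normalization and with 5 summary rows per library, which were left out. Reads on no gene were 31.3% to 39.9% and ambiguous reads 0.428% to 0.467% of those counted, on a gene, ambiguous or on none. Names and places came from GENCODE M39 of the same build, a later release than the authors', in which 52610 of the 53700 identifiers have a symbol.

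The groups were set against each other with edgeR 4.0.16 in R 4.3.3 (glmQLFit and glmQLFTest, TMM, group as the only term) on 19268 genes with a total over 10, with Benjamini-Hochberg adjustment over all of them and a threshold of 0.05. The 95% interval is the log2 fold change plus or minus a t quantile times the standard error of the fit, and covers the spread between libraries. Single genes were also compared by an exact two-sided permutation test of mean log2 CPM (prior count 2) over 252 relabellings, whose smallest p is 0.0079. The study gives its N for this experiment as 5 mice of each genotype, and p-values measure the spread between their libraries. The fit was tested on simulated counts.

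The members and the lists were chosen with earlier results of these data known. Named are the 7 members, genes that overlap them, Mylip, and from each related list the genes past the threshold or otherwise the values furthest above and below 0 at 5 CPM or more, with the 2 genes most like each member in log2 CPM, of which 1 is not reported here. Alternatives were DESeq2 1.42.0, its size factors, filterByExpr, no filter, edgeR's robust option, dropping mitochondrial genes, a block on the replicate number, and dropping single libraries.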

Additional observations from a re-analysis of the deposited data

Results flagged for a closer look

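In 1 of 14 sets of 5 libraries (7 genes in 2 groups) a single library stood apart by Dixon's test at the 95% level, which chance gives in about 1 set of 20. This was Thop1 in 5XFAD replicate 3, at 10.9 CPM, where the next highest control was at 5.59 CPM; the gap took up 0.773 of the range of the group.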

How the results depend on the processing

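None of the 7 genes passed the threshold under any of the 17 alternatives, of which DESeq2 gave 5 of them no adjusted p, and the smallest adjusted p of any was 0.532 (Ece1, DESeq2), or 0.536 with edgeR (Ece1 without 5XFAD replicate 3). Of 119 values for single members, 117 kept their direction. The 2 that did not were Ide without 5XFAD replicate 1, at 0.14, and Thop1 without 5XFAD replicate 3, at 0.0067. Over the 10 fits without 1 library, log2 fold changes ran from 0.086 to 0.37 for Mme, -0.24 to 0.14 for Ide, 0.14 to 0.31 for Ece1, 0.31 to 0.74 for Ece2, -0.87 to -0.30 for Ace, -0.50 to 0.0067 for Thop1 and -0.43 to -0.23 for Pitrm1. The related lists held 1 gene past the threshold in each fit.

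The count over all genes, 42, was 73 with DESeq2, 103 with no filter on low counts and 26 to 72 with 1 library left out (26 without 5XFAD replicate 2, 27 without 5XFAD;Neu cKO replicate 4, 27 without replicate 5 of that group, 72 without 5XFAD;Neu cKO replicate 1); the cause was not tested. DESeq2 gave an adjusted p for Ide (0.939) and Ece1 (0.532) and none for the other 5. With the replicate number as a block it was 112 genes, and 0 of the 7. Same-numbered libraries did not deviate together over the genes at a mean of 5 CPM or more (r of -0.054 to 0.021). Pairing in a smaller set of genes was not tested.

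Counts were lowest for Ece2, Ace and Thop1, at 6 to 80 per library, and their 95% intervals were the widest of the 7 genes.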
